A study of Mus musculus with 6 samples.

Results

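Besides its gene probes, the array carried probes designed to stretches of chromosome rather than to a named transcript. Each of these was named by an interval of assembly mm9 and a strand letter, F or R, such as chr8:48480224-48480698 on R. There were 16194 interval probes on the array, and 7933 of them (49.0%) were well above background on at least 3 of the 6 arrays and are described here. That flag of the scanner software chose the probes, so which probes were detected is a description and not a result. The array held 55681 distinct non-control probes in all, of which 35444 met the same condition.

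Intervals of this kind lie between or across annotated genes and can be transcribed into long non-coding RNA, a broad class of transcripts without a protein product. Long non-coding RNAs are often present at lower levels than mRNAs, can be read from either strand of a locus and can be specific to a cell type. A probe of an interval reports any RNA with its sequence, including an extended or unspliced part of a neighbouring gene's transcript. The files pair no interval with a gene and hold no probe sequence or position within the interval, so the intervals are given by coordinate only.

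The RNA came from spheres, free-floating cell clusters in serum-free culture, grown from mouse mammary tumors in DMEM/F12 with B27 supplement, 20 ng/mL EGF, 20 ng/mL bFGF and 2 mg/mL heparin. The groups were FRS2beta hetero mice (3 arrays) and FRS2beta knock-out mice (3 arrays), and both received the same medium. No wild-type group was analysed here. FRS2beta belongs to the docking proteins that link receptors such as those for FGF and EGF to signalling inside the cell. The labels do not give the tumor model, the age of the mice, or the origin of the replicates (animals, tumors or cultures). The p-values thus reflect the spread among these 6 samples alone, and that spread may be technical.

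The probe for Frs3, the gene of FRS2beta (NM_144939), had scaled log2 signals of -7.30, -4.64 and -6.01 on the hetero arrays and -7.88, -7.95 and -7.36 on the knockout arrays. It was well above background on 1 of 3 hetero arrays and 0 of 3 knockout arrays, so it checked the labels only weakly. Here and below, a scaled signal is the log2 processed signal minus the array's 75th percentile. Across probes, which are not independent replicates, correlations between arrays were 0.993 to 0.997 within a genotype and 0.973 to 0.979 between genotypes. Of the interval probes, 45.3% to 46.5% were above background on the hetero arrays, 57.8% and 53.5% on knockout replicates 1 and 2, and 44.3% on knockout replicate 3. Markers of cell types moved between the genotypes: 13 of 13 luminal epithelial genes were called higher in the knockout (summed linear signal 13.6 to 14.0 times the array's 75th percentile in hetero, 143 to 147 times in knockout). Of the basal and myoepithelial genes 6 of 7 tested were called higher, while 11 of 11 macrophage genes (summed signal 96.7 to 100.2 against 67.1 to 69.0) and 7 of 8 fibroblast genes were called lower. Most of the macrophage sum was Itgam, with mean scaled log2 signals of 6.20 in hetero and 5.88 in knockout. It had the smallest fall of that list, -0.32 against a list median of -1.65. Of 5 endothelial genes 1 was called higher and 3 lower, and of 4 T and B lymphocyte genes tested 1 each way. Over all probes kept, 19.4% were called higher and 27.6% lower. Scaling on spike-in controls put the called falls of Itgam (0.10) and Col1a1 (0.26) above 0, while the other macrophage and fibroblast falls stayed below 0. No cell type list was absent from either genotype, and the part of cell makeup in the interval differences was not tested. In such bulk RNA, fewer cells of a type and less RNA per cell cannot be told apart.

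The 7933 interval probes covered 3501 intervals counted per strand, with 3902 probes on F and 4024 on R. Interval length ran from 62 to 538251 bp among them, with a median of 11376 bp. A single probe represented 1390 intervals, at least 2 probes represented 2109 intervals, and 9 intervals had 10 probes each. Most of the probes, 6277 (79.1%), were above background on all 6 arrays. Probes above background on 3 knockout arrays and no hetero array numbered 152, against 5 of the reverse kind; among mRNA probes, whose names are RefSeq NM accessions, the counts were 404 and 29. The interval probes were dim, with a median scaled signal of -3.18 against 0.17 for mRNA probes. At the edge of the rule, the 634 probes detected on exactly 3 arrays had a median scaled signal of -5.14 (5th to 95th percentile -5.61 to -4.64), and the 822 left out with exactly 2 arrays had -5.51 (-6.11 to -5.00).

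Hetero and knockout spheres differed at many intervals, mostly by small amounts. Of the 7933 interval probes, 2500 (31.5%) were called, 679 (8.56%) higher and 1821 (23%) lower in the knockout, although scaling on spike-in controls gave 3071 higher and 255 lower. A call is an adjusted p under 0.05 in limma with Benjamini-Hochberg adjustment over all 35444 probes. The background was 47% of all probes called (19.4% higher, 27.6% lower) and 54.4% of mRNA probes (26% higher, 28.4% lower), so the share of interval probes called lay below that of the array as a whole. Probes for RefSeq non-coding transcripts (NR accessions), at 43.6% called, lay between. The median called rise of interval probes was 0.51 and the median called fall -0.41 on the log2 scale. Among the 6277 detected on all 6 arrays, 2289 (36.5%) were called, 552 (8.79%) higher and 1737 (27.7%) lower, against 50.3% (19.7% higher, 30.6% lower) of all probes so detected. The genotypes did not overlap at 3329 interval probes (42%), against 58.9% of all probes.

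The median difference of the interval probes was -0.16 (knockout minus hetero, log2), beside -0.07 for all probes, -0.02 for mRNA probes and -0.13 for RefSeq non-coding probes. It was below 0 in 68.0% of interval probes and in 53.0% of mRNA probes. Spike-in scaling raised the difference of every probe by about 0.42, which put the interval median at 0.26 and the mRNA median at 0.40. Relative to the mRNA probes, the interval median was lower by 0.13 under the percentile, median and spike-in scalings alike. Those scalings by construction move all probes together. It was lower by 0.13 with normexp background correction and by 0.15 with quantile normalization. These medians are a description of the arrays and have no test.

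**Figure D1:**
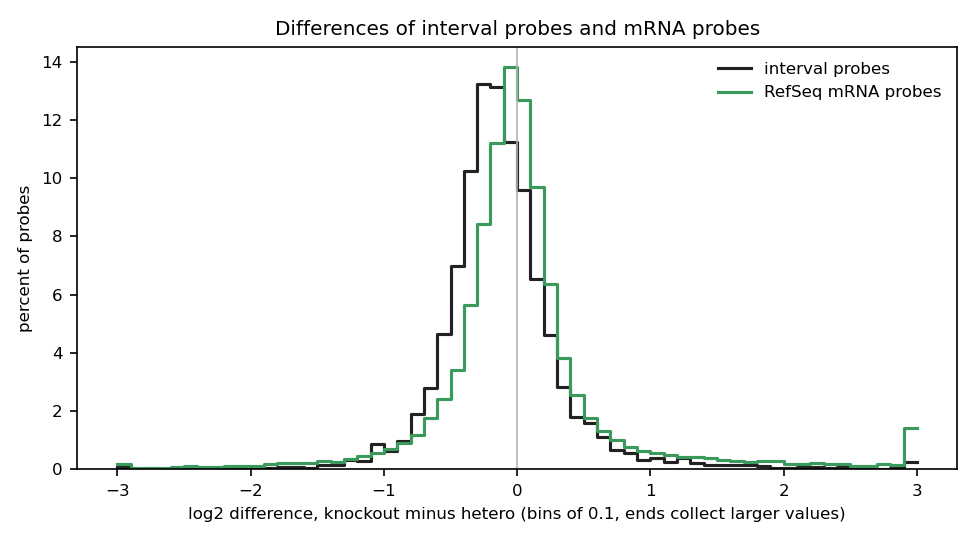
Distribution of the log2 difference (knockout minus hetero) over 7933 interval probes and 20347 RefSeq mRNA probes, as the percent of probes in bins of 0.1. The interval distribution sits to the left of the mRNA distribution (medians -0.16 and -0.02) under the 75th percentile scaling, and both move right by about 0.42 under spike-in scaling.

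Signal strength went with how often a difference was called. The share of interval probes called was 12.1% below a scaled signal of -4 and 67.8% above 2, and for mRNA probes it was 30.4% and 61.1% in the same classes. In each of the 8 signal classes the interval median lay between -0.19 and -0.12 and the mRNA median between -0.04 and 0.03. Fits had a median standard error of 0.12 for interval probes and 0.046 for mRNA probes, so small differences were harder to call for interval probes. Of the bright interval probes, above 2, 14.9% were called higher and 52.8% lower, and 4 of 369 reached a 2-fold fall and 0 a 2-fold rise.

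**Figure D2:**
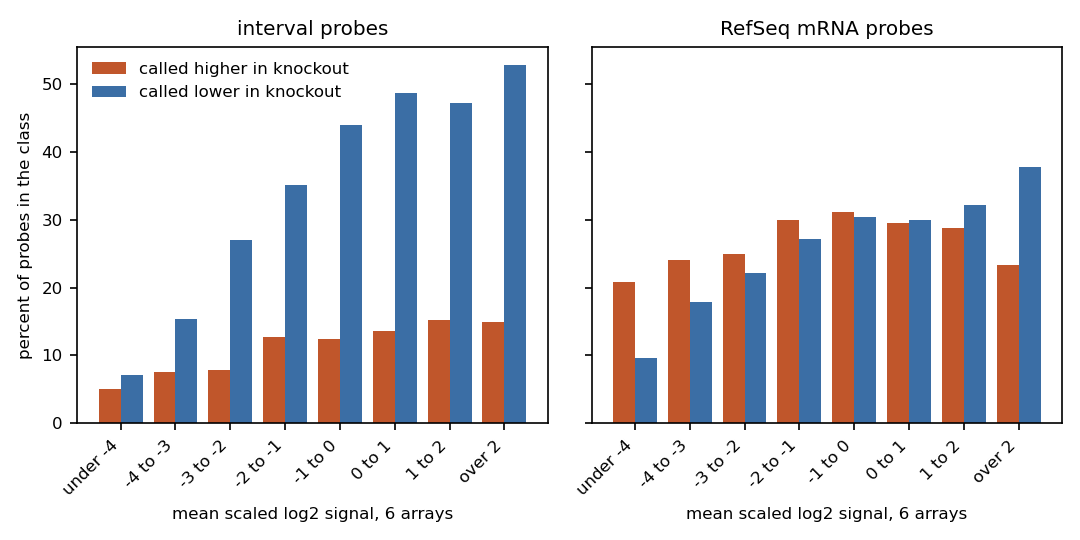
Percent of probes called higher or lower in the knockout within classes of mean scaled log2 signal, for interval probes (left) and RefSeq mRNA probes (right). Interval calls lower in the knockout rise from 7.05% of the dimmest to 52.8% of the brightest class under the 75th percentile scaling. Of the 1821 falls in all, quantile normalization kept 1620 and spike-in scaling 255.

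Large differences were fewer. At least 2-fold differences were called for 251 interval probes (3.16%), 151 higher (1.9%) and 100 lower (1.26%), against 6.85% of all probes (4.36% higher, 2.49% lower) and 9.39% of mRNA probes. Their dim side was often below background: in 66 of the 151 rises no hetero array was above background, and in 5 of the 100 falls no knockout array was. With such values replaced by the detection limit, 49 of the 66 rises and 5 of the 5 falls were still at least 2-fold. Among probes detected on all 6 arrays, the counts were 62 higher and 62 lower (0.988% each, against 3.07% and 2.34% of all probes so detected). Normexp background correction, whose offset of 50 shrinks the differences of dim probes by construction, left 23 rises and 18 falls of 2-fold.

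The 12 largest rises came from 12 intervals on chromosomes 1, 2, 4, 8, 11 and 18, 10 of them on strand R. They were ranked by measured difference, and at 9 of them no hetero array was above background, so their order rests partly on values under the detection limit. A rise of 2.44 on chromosome 13, described further on and above background on every hetero array, lies outside the 12 yet exceeds the lowest of their bounds. For these 9 the rise is given as a bound, "at least N-fold", which holds for the processed signal. An adjusted p beside a bound belongs to the measured difference and not to the bound. The detection rule kept these 9 probes through the knockout arrays alone. With normexp background correction the 12 rises were smaller, from 0.26 to 1.76 on the log2 scale, and 11 were called. The probe of chr8:48480224-48480698 on R had scaled signals of -7.07, -7.29 and -7.09 in hetero and -3.37, -3.13 and -3.21 in knockout, a rise of at least 4.91-fold (n = 3 each; adjusted p = 6.37e-06 in limma). The knockout arrays lay far above the hetero arrays with no overlap, and the interval's other 2 probes were also called higher, by at least 2.22-fold and 2.83-fold, again with no hetero array above background.

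On chromosome 1 a pair of nested R intervals rose. The probe of chr1:195332659-195335997 with the largest difference read -5.01, -4.62 and -4.38 in hetero and -0.82, -0.89 and -0.94 in knockout, a 13.8-fold rise (difference 3.79 ± 0.16 (SE), adjusted p = 4.86e-05) with 2 of 3 hetero arrays above background. Of the interval's other 2 probes, A_30_P01022154, above background on all 6 arrays, rose by 3.43 on the log2 scale, and the other, with no hetero array above background, at least 7.41-fold. In the surrounding chr1:195327945-195336595, 2 of 3 probes rose, at least 3.08-fold and 8.40-fold, with no hetero array above background. The last probe of that surrounding interval was the brightest there and did not follow: it read 1.35, 1.26 and 1.35 in hetero and 1.34, 1.32 and 1.24 in knockout, with a difference of -0.02 (adjusted p = 0.80).

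Chromosome 18 gave 5 of the 12 largest rises, all on R. The probe of chr18:70400082-70404236 read -5.78, -5.04 and -5.27 in hetero and -1.75, -1.86 and -1.77 in knockout, an 11.9-fold rise (3.57 ± 0.20, adjusted p = 0.000110), but only 1 of 3 hetero arrays was above background, so its fold also leans on signals near the detection limit. Its interval's other 2 probes, with no hetero array above background, rose at least 9.11-fold and 9.42-fold. The knockout values of this probe lay closer together than the hetero values, and the groups were far apart. The probe of chr18:63355660-63369610 rose at least 6.46-fold, from -5.93, -6.41 and -7.01 to -2.87, -2.96 and -2.68 (adjusted p = 0.000408), and its 4 companions were all called higher. For 2 of these, detected on 2 hetero arrays each, the differences were 1.95 and 2.82. The remaining 3 lay in 1 group of overlapping intervals, chr18:63455560-63548085, described further on.

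Of the other large rises, chr4:88583425-88584070 on R rose at least 7.74-fold (adjusted p = 0.00313), with hetero signals of -5.14, -5.55 and -6.95 against -2.40, -2.41 and -2.41 in knockout. The probe of chr4:46583780-46614788 on R rose at least 3.43-fold and that of chr2:33496712-33501183 on F at least 4.44-fold, the latter with knockout signals of -3.65, -3.80 and -2.68. The chr2 interval's other 2 probes, above background on every array, were called higher by less, 0.39 and 0.81 on the log2 scale. No other probe of chr4:46583780-46614788 on R was detected. The rise at chr11:3521324-3539552 on F rested much on 1 array: its knockout signals were -1.59, -4.51 and -4.54 against -7.28, -7.32 and -7.11 in hetero (at least 3.95-fold, adjusted p = 0.0191). Without knockout replicate 1 the measured difference fell from 3.69 to 2.71 and was still called, whereas with any of the hetero replicates left out (adjusted p 0.0532 to 0.0584) or with normexp (adjusted p 0.152) it was not called.

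The 12 largest falls were spread over chromosomes 1, 3, 4, 5, 10, 17, 18 and 19, with 8 on F. With normexp background correction they were smaller, from -2.27 to -0.44 on the log2 scale, and all 12 were called. The probe of chr17:33368400-33393525 on F fell from -1.78, -2.62 and -2.68 in hetero to -7.93, -8.00 and -7.44 in knockout (adjusted p = 0.000110). No knockout array was above background, so the fall is at least 9.78-fold. It stood alone in its interval, where the other 2 detected probes differed by -0.55 and 0.06 and neither was called. The probe of chr10:66383049-66386347 on F was above background on every array and fell 15.6-fold, from -0.42, -0.47 and -0.46 to -4.34, -4.19 and -4.71 (-3.96 ± 0.14, adjusted p = 2.45e-05). Neither of the other 2 probes of that interval was detected. The groups did not overlap at the named probe of either interval.

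Falls shared by all the detected probes of an interval were seen on chromosomes 5 and 19. At chr5:14943275-14944205 on F, 1 probe fell from -2.03, -2.19 and -2.06 to -4.83, -5.19 and -5.50 (8.42-fold, -3.07 ± 0.18, adjusted p = 0.000132, 2 of 3 knockout arrays above background) and the other by 3.02 on the log2 scale. At chr5:15146475-15170100 on F the named probe read -2.05, -2.00 and -2.00 in hetero and -5.03, -5.57 and -5.65 in knockout (10.6-fold, -3.40 ± 0.17, adjusted p = 8.51e-05, 2 of 3 knockout arrays above background), and its 2 companions were called lower by 2.63 and 2.75 on the log2 scale. In both intervals the hetero arrays lay close together and far above the knockout arrays. At chr19:60220577-60238494 on F the signals of -1.71, -1.72 and -1.86 in hetero fell to -3.78, -3.86 and -4.17 (4.52-fold, -2.18 ± 0.12, adjusted p = 9.83e-05), with companions at -2.12 and -1.87.

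At several other falls a single probe of the interval was called. At chr4:10407110-10724958 on R, an interval of 317849 bp, the only detected probe fell 6.74-fold (-2.75 ± 0.26, adjusted p = 0.000810). The probe of chr1:133839368-133839762 on F fell 4.88-fold, and its 2 companions, at -0.23 and 0.10, were not called. At chr4:3009566-3009932 on R the named probe fell at least 5.07-fold and its companion differed by 0.20 without a call. The named probes of chr18:38478632-38482159 on F (at least 3.79-fold), chr3:88009045-88036270 on R (4.34-fold, 2 of 3 knockout arrays above background), chr17:27703181-27716306 on F (at least 2.60-fold) and chr17:36130717-36137617 on R (3.56-fold, 1 of 3) make up the 12. The chr3 interval differs, as another of its probes was called lower, by 0.59 on the log2 scale. At chr18:38478632-38482159 and chr17:36130717-36137617 no other probe of the same strand was detected. Around the named rises, 24 of 26 further detected probes of the same intervals were called higher. Around the named falls 6 of 14 were called lower, with none called the opposite way in either set. Many of the probes around the rises had no hetero array above background. The detection rule kept those through the knockout arrays alone, so their share called higher is no separate support. Whether the shares differ was not tested.

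**Figure D3:**
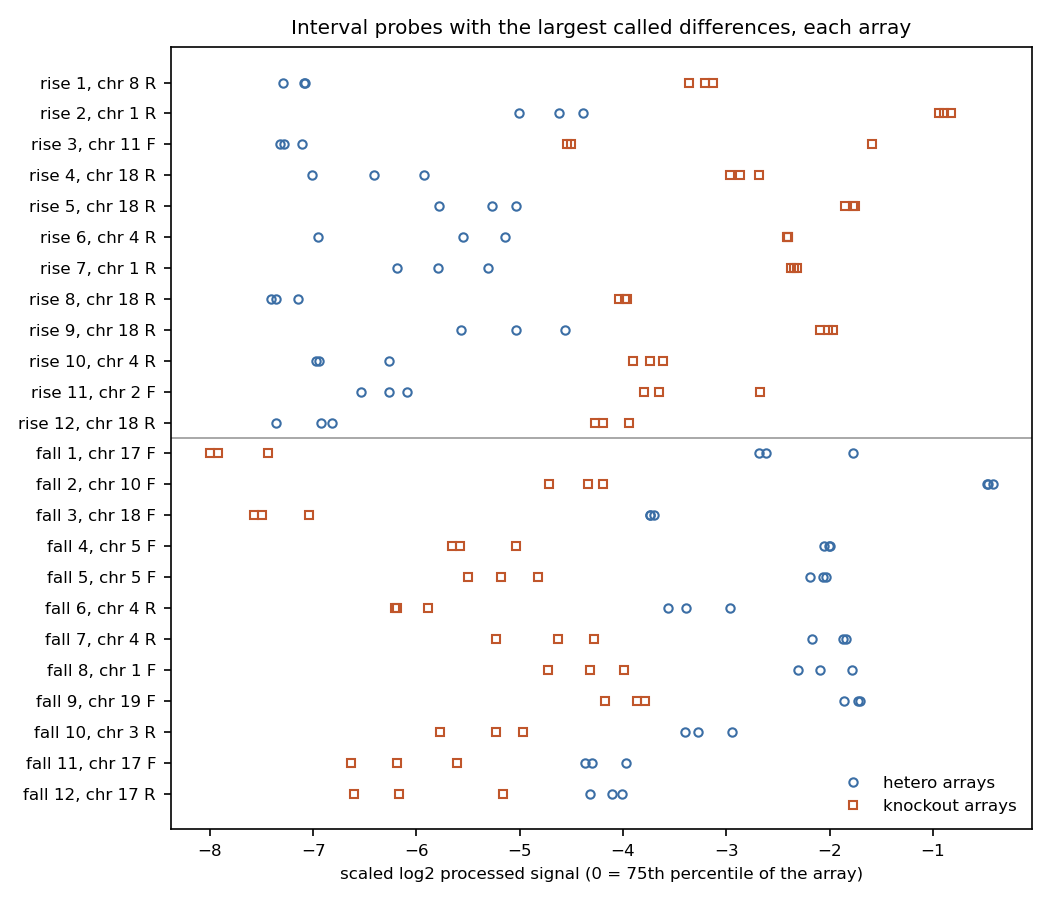
Scaled log2 signal on each of the 6 arrays for the 12 largest rises (above the line) and 12 largest falls (below) among interval probes, 1 probe per interval, labelled by chromosome and strand. Hetero (circles) and knockout arrays (squares) do not overlap at any of the 24 probes, which the choice of probes required, and rise 3 shows a lone knockout array at -1.59. At 9 of the rises the hetero arrays, and at 4 of the falls the knockout arrays, were all below background.

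Probes of the same interval and strand mostly moved together where both were called. Over 8990 pairs of detected probes in 1694 intervals, their differences correlated at r = 0.52 (Spearman rho 0.41), as a description over pairs that share arrays and intervals. In 1577 pairs both probes were called, and 94.2% of these had the same sign. Their median gap was 0.11 on the log2 scale, against 0.20 over all 8990 pairs. Across all pairs of called interval probes, whatever their interval, the same sign was found in 60.4%, the share set by 1821 falls and 679 rises. Of 536 intervals with at least 2 called probes, 146 had only rises, 345 only falls and 45 both. In 222 intervals of at least 2 probes every detected probe was called, all higher in 71 and all lower in 139.

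Opposite strands of an interval were compared in the same way. There were 1067 intervals with probes for both strands, and probes on both strands were detected in 754 of them, on a single strand in 249 and on neither in 64. Over 6798 pairs of probes on opposite strands r was 0.12, and 83.8% of the 712 pairs with both probes called had the same sign. Of 185 intervals with called probes on both strands, 130 were called lower on both, 12 higher on both, and 27 higher on one strand and lower on the other. These counts of shared falls hold for the 75th percentile scaling. Spike-in scaling kept 255 of the 1821 called falls. Its shift of about 0.42 is too small to turn a 2-fold fall, so all 100 of those kept their sign by construction.

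**Figure D4:**
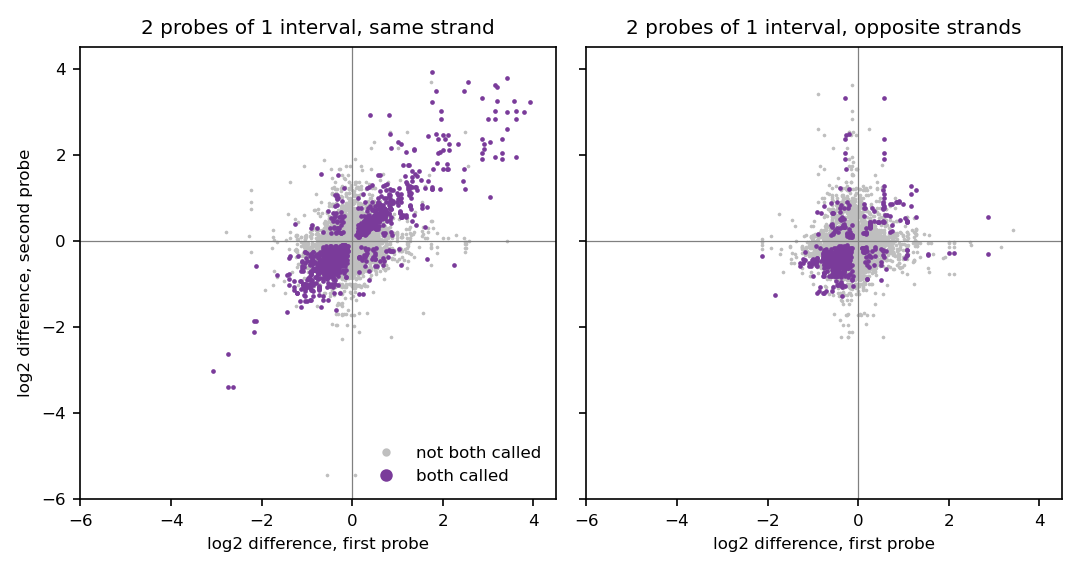
Log2 differences (knockout minus hetero) of 2 detected probes of the same interval, on the same strand (left, 8990 pairs) and on opposite strands (right, 6798 pairs), with pairs in which both were called in purple. The correlation over pairs is 0.52 for the same strand and 0.12 for opposite strands.

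At chr6:50339188-50409363 the strands differed in direction. On R, 3 of 7 probes were called higher, among them A_30_P01021606, above background on all 6 arrays, with -4.90, -4.86 and -4.81 in hetero and -4.26, -3.88 and -3.94 in knockout. The difference was 1.20 at another, with 1 hetero array above background, and the last, with none, rose at least 1.49-fold. On F, probe A_30_P01018958 was called lower by 0.20 on the log2 scale, from -0.94, -0.86 and -0.88 to -1.02, -1.12 and -1.15, a fall that spike-in scaling would turn. At chr19:53517903-53540753, 4 of 5 R probes were called higher. The only one of these with a hetero array above background, A_30_P01029324, differed by 1.66 ± 0.22, and the other 3 rose at least 2.05-fold to 2.67-fold, while the 5 F probes ranged from -0.76 to -0.02 and 1 was called lower. Both intervals were chosen after their values were seen.

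Large differences also ran across neighbouring intervals. Intervals of the same strand lying within 50 kb of each other were joined into 2295 stretches, 780 of them with at least 2 intervals. In 15 stretches, 11 with rises and 4 with falls, 2-fold probes of the same direction came from at least 2 intervals, and these held 82 of the 251 2-fold probes. Many of the intervals overlap and their probes may report the same RNA, so they are not independent. The stretches were chosen by these values and are a description.

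The longest lay on chromosome 13, strand R, at chr13:28477490-28985604, where 14 of 23 probes in 10 intervals were called higher, 8 of them above background on every hetero array with differences of up to 2.44, and 1 was called lower, by 0.56. The brightest probe there, A_30_P01027179, read 3.55, 3.58 and 3.56 in hetero and 3.61, 3.45 and 3.54 in knockout and was not called, so the probes of this stretch did not move as a unit. On chromosome 2, strand R, at chr2:127988295-128217972, 15 of 16 probes in 5 intervals were called higher, by 0.59 to 1.61, and all 16 were above background on every hetero array. Its probe A_30_P01029173 (chr2:128142035-128142481) read -1.76, -1.95 and -1.85 in hetero and -0.27, -0.24 and -0.21 in knockout. The remaining probe, of the longest interval, differed by -0.23 without a call.

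At chr18:63455560-63548085 on R, 11 of 12 probes in 4 overlapping intervals were called higher. No hetero array was above background for 8 of these 11, which rose at least 1.56-fold to 3.74-fold, and the other 3 differed by 1.01 to 3.03. Its probe A_30_P01031906, of chr18:63525907-63526504, was above background on every array and rose from -3.65, -3.98 and -3.81 to -1.56, -1.57 and -1.46. The probe of chr18:63455560-63548085 itself rose at least 2.90-fold, that of chr18:63480341-63480899 at least 2.62-fold, and that of chr18:63525907-63526504 with the largest difference 8.18-fold, with 1 of 3 hetero arrays above background. At chr3:137736327-137752677 on F, 6 of 6 probes in 2 intervals rose by 1.20 to 1.77.

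The clearest stretch of falls was on chromosome 10, strand F, at chr10:83181374-83249918, where 9 of 9 probes in 3 intervals were called lower and were above background on every array. Of these, 8 differed by -1.09 to -1.01, although their scaled signals in hetero ran from 0.19 to 3.37. Its probe A_30_P01017680 read 2.70, 2.68 and 2.63 in hetero and 1.62, 1.64 and 1.60 in knockout (adjusted p = 1.41e-05). The remaining probe belongs to the interval that spans the whole stretch, and its position within it is not given. That probe fell by 0.23 on the log2 scale and is the only 1 of the 9 whose sign spike-in scaling turned. At chr11:53574182-53672731 on R, 7 of 9 probes were called lower, and at chr11:59189157-59220607 on R, 6 of 8; under spike-in scaling 2 of the 9 and 3 of the 8 differences were above 0.

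On chromosome 7 neighbouring stretches of opposite strands moved in opposite directions. At chr7:66926500-67050575 on F, 5 of 5 probes were called lower, by 0.53 to 1.65 on the log2 scale. At chr7:67111261-67120697 on R, 3 of 4 probes were called higher, by 1.05 to 1.26, while the last read -6.80, -4.86 and -5.93 in hetero and -4.95, -4.97 and -2.49 in knockout, overlapping and without a call. The F probe A_30_P01029670 read -2.62, -2.77 and -2.68 in hetero and -3.92, -3.82 and -4.11 in knockout.

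**Figure D5:**
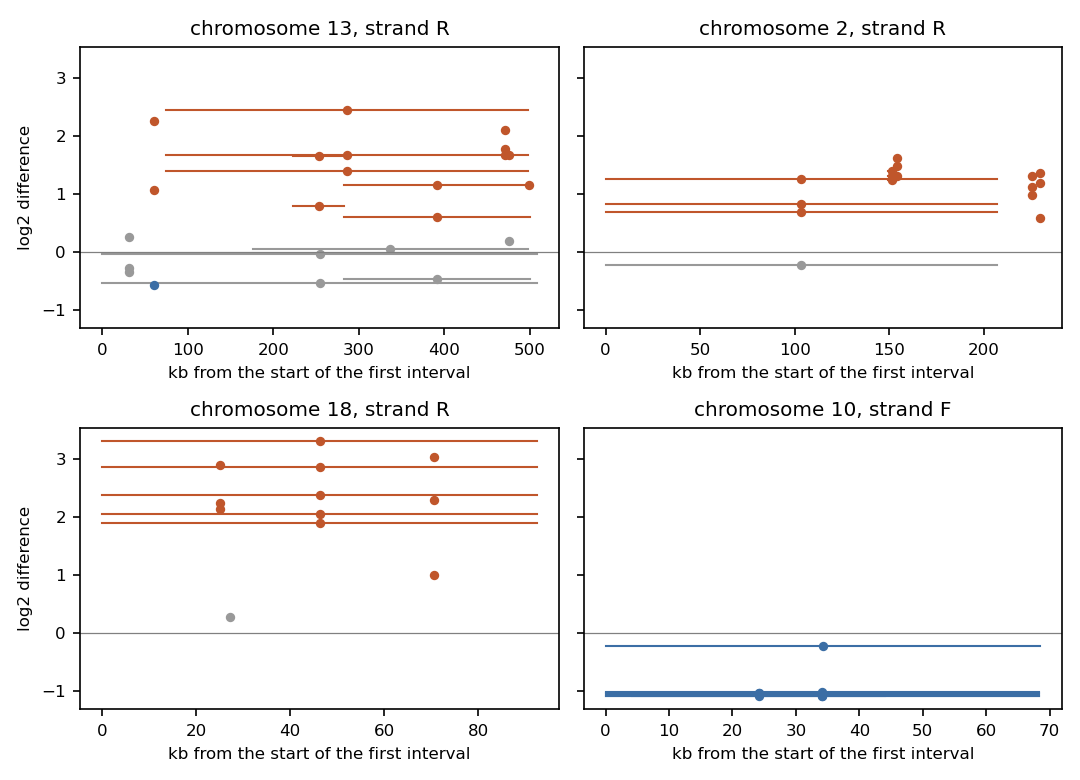
Log2 difference (knockout minus hetero) of each detected probe in 4 stretches of neighbouring intervals, against distance in kb from the start of the first interval. Dots mark the middle of the probe's interval and lines its extent, since the position of the probe within it is not given; red is called higher, blue called lower and grey not called. On chromosome 10 all 9 probes are called lower, 8 of them near -1, while on chromosome 13 called and uncalled probes are mixed. The called rises include 6 on chromosome 13 and 8 on chromosome 18 with no hetero array above background, whose plotted heights rest on values under the detection limit.

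By strand, 2-fold rises were more numerous on R (109 probes in 58 intervals) than on F (42 probes in 31 intervals), and 2-fold falls numbered 45 on R and 55 on F. Outside the 15 stretches the rises numbered 54 on R and 32 on F. Calls of any size were alike, at 31.9% of R and 31.1% of F probes. By chromosome, the share called ran from 27.1% (chromosome 4) to 38.5% (chromosome 19), and 36.5% of the probes on X were called. Chromosome 18 had the highest share of rises, 16.1% of 286 probes, and 21 of its 2-fold rises, of which 11 came from the stretch at chr18:63455560-63548085. By interval length, 30.7% to 34.1% of probes were called, and the class of 1 to 5 kb had the highest share of rises, 12.8%. Probes of an interval share their source, so these shares were not tested.

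The intervals with the most detected probes, 10 each, showed how far probes of an interval can agree or differ. At chr17:26911397-26917047 on F, 10 of 10 probes were called lower, by 0.10 to 0.24 on the log2 scale, while spike-in scaling called all 10 higher. At chrX:90997595-91009570 on R, 8 of 10 were called lower, by up to 0.70, with 3 falls left under spike-in scaling. Probe A_30_P01021513 of that interval read 1.42, 1.41 and 1.29 in hetero and 0.79, 0.76 and 0.71 in knockout (-0.62 ± 0.05). At chr5:74487385-74497428 on F 3 of 10 probes were called higher, with differences from -0.15 to 0.19, and at chr16:43623581-43642715 on F 4 of 10, from -0.12 to 0.85. At chr8:119732348-119749198 on F 2 of 10 were called lower.

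The brightest interval probes barely separated the genotypes. The probe of chr14:78924115-78938125 on F read 8.90, 9.06 and 9.01 in hetero and 8.90, 8.46 and 8.41 in knockout (-0.40 ± 0.14, adjusted p = 0.0723). That of chr6:116092274-116144199 on F read 8.75, 8.92 and 8.92 against 8.84, 8.32 and 8.20, and its groups overlapped (-0.41 ± 0.18, adjusted p = 0.121). That of chr12:73838608-73862621 on R was called lower (8.39, 8.50 and 8.41 against 8.25, 8.01 and 7.93; -0.37 ± 0.09, adjusted p = 0.0233), and spike-in scaling put all 3 differences between 0.0076 and 0.048. This last call was lost when any replicate but knockout replicate 1 was left out, with adjusted p of 0.0542 to 0.0751.

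The strand letter was missing for 13 interval probes in 3 intervals, and 7 of them were detected. At chr17:12941161-12944859, 5 of 5 probes were detected and 1 was called lower, by 0.20 on the log2 scale (adjusted p = 0.0146). At chr6:52032838-52033444, 2 of 5 were detected and neither was called.

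Named long non-coding RNA genes on the same arrays gave a comparison with known transcripts. Of a list of 50, 26 had a probe and 21 were tested, of which 7 were called higher (33.3%) and 9 lower (42.9%) in the knockout, against 19.4% and 27.6% of all probes, with a median difference of -0.07 beside -0.07 over all probes. Malat1, a nuclear RNA of splicing speckles, differed by 0.73 ± 0.04 and Neat1, the scaffold of paraspeckles, by 0.49 ± 0.03 (SE; adjusted p = 0.000123 and 0.000163). Mirg, from the imprinted Dlk1-Dio3 region, differed by -0.62 ± 0.03 and Dnm3os, a microRNA host transcript, by -0.56 ± 0.04 (adjusted p = 0.000115 and 0.000187). Under spike-in scaling 6 of the 9 falls had differences above 0, and 3 stayed below, among them Mirg (-0.21) and Dnm3os (-0.14).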

How the data were processed

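Cy3-labelled RNA of 6 sphere samples (3 hetero, 3 knockout) was measured on Agilent arrays in 1 colour. The deposited intensity values came from Agilent Feature Extraction 10.7.3.1, per the file headers and the submitters' processing notes. The processed signal is an intensity from which Feature Extraction had subtracted background, with no scaling between arrays, per the file headers. The flag for well above background is the authors' deposited software flag.

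Control spots and outlier-flagged spots were left out, and spots of a probe were averaged as log2 values. The log2 processed signal minus each array's 75th percentile was fitted with limma 3.58.1 (lmFit, eBayes) in R 4.3.3, on all 35444 probes above background on at least 3 arrays, with no covariate. Differences are knockout minus hetero, and p-values were Benjamini-Hochberg adjusted over these probes. Where no array of the dimmer genotype was above background, the fold is "at least": the mean of the brighter group is set against a floor for the dimmer one, which takes on each array the lowest signal well above background or the probe's own value if higher, and averages these. An adjusted p given with such a fold is that of the measured difference. The fit was tested on simulated data.

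The 12 largest called rises and falls without overlap (1 probe per interval, brighter genotype above background on its 3 arrays), the 5 intervals with most probes, the 3 brightest probes and up to 4 genes of the non-coding list with the smallest p are named; other intervals were chosen after their values were seen. The interval probes and all lists were chosen with earlier results of these data known. All 6 arrays lay on 1 slide. Replicates 1 and 2 of each genotype were in slide row 1 and replicate 3 in row 2, while each slide column held a single genotype, so column and genotype cannot be told apart. The number of arrays limits the precision. Gene symbols came from RefSeq accessions (table of GRCm38.p6, names only). Alternatives were quantile, median and spike-in scaling (7 spike-in probes), normexp with an offset of 50, other filters, replicate and slide row blocks, the deposited table and leaving out each replicate. Normexp used median spot and local background intensities of the deposited files in place of means. The deposited table of intensities is the processed signal over 1 constant per array (within 1% for 100% of singly spotted probes), linear and not centred, with column medians of 0.159 to 0.169. The labels do not say whether samples with the same replicate number were paired. Correlations of their deviations from the genotype means were -0.15, -0.0036 and -0.0035, which cannot settle it with 3 arrays per genotype.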

Additional observations from a re-analysis of the deposited data

How the results depend on the processing

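Quantile and median scaling, the slide row block, the deposited table and no filter kept the counts of interval probes called within 1.5 times of those reported. Spike-in scaling gave 3071 higher and 255 lower, 379 at least 2-fold (357 higher, 22 lower), a median of 0.26, which turned its sign, and 96.8% of called same-strand pairs with the same sign, against 85.8% of all pairs of called probes under that scaling. It kept 679 of 679 rises and 255 of 1821 falls, and turned 375 falls into called rises; the shift of 0.42 is its construction. Under it the brightest probes stood at 0.018 (chr14:78924115-78938125), 0.0076 (chr6:116092274-116144199) and 0.048 (chr12:73838608-73862621). Normexp called 4330, of which 3876 lower, 3502 among probes detected on all 6 arrays, and 41 at least 2-fold (23 higher, 18 lower). Its offset of 50 shrinks the differences of dim probes by construction. Why it called more probes was not tested. Requiring detection on all 6 arrays, which tests fewer probes, left 125 at least 2-fold (62 higher, 63 lower).

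Leaving out each replicate gave 1945 to 2287 called (530 to 631 higher, 1348 to 1667 lower), 225 to 252 at least 2-fold, medians of -0.18 to -0.11 and 92.8% to 95.1% same-sign pairs. A replicate block used the replicate numbers, whose pairing the labels do not give. It gave 1925 called (557 higher, 1368 lower), a median of -0.16, and an adjusted p of 0.0507 for chr17:36130717-36137617. The stretches numbered 13 and 17 with gaps of 0 and 100 kb, 26 under spike-in scaling, 3 under normexp and 7 with detection on all 6 arrays; these were added after seeing the data. A planned comparison of interval probes with gene probes inside the interval was not run, because the files used here give no probe positions. Dim signal limits the calls: 2526 interval probes lay below a scaled signal of -4, where 12.1% were called.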
